A study of Mus musculus with 2 samples.

Results

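Bidirectional promoter peaks are DNase I hypersensitive sites at the starts of 2 protein-coding genes that face away from each other. They were drawn from DNase-seq of thymus tissue of female B6CASTF1/J mice, the first generation of a cross of B6 with CAST, at an age of 18 to 20 months. There were 2 libraries in 1 group, labelled as biological replicates 1 and 2, with no other age, sex, tissue or treatment beside them. Their biosample records differ but the donor record is 1 and the same, so their spread may be technical or between animals. Whether animals were pooled is not stated in the labels. A peak of the shorter deposited list was a member if it overlapped a peak of the other library's shorter list and its centre lay within 1 kb of both start sites of such a pair, with at most 1 kb between the start sites, on autosomes. The rule was met by 1374 peaks in replicate 1 and 1376 in replicate 2, of 50648 and 49872 peaks in the whole lists. Those members were 3.51% and 3.52% of the 39126 and 39129 autosomal peaks shared between the libraries.

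A bidirectional promoter is a short stretch of DNA from which a pair of genes is transcribed in opposite directions. In mammals such promoters are often rich in CpG dinucleotides and lack a TATA box, and they serve many housekeeping genes, among them genes of DNA repair, mitochondria and the cell cycle. DNase I cuts where nucleosomes are absent, and short protected stretches inside such a site, called footprints, mark bases that were cut less than their surroundings. In the thymus, where T cell precursors mature, most cells are thymocytes.

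The genome annotation held 980 divergent pairs on the autosomes, made of 1922 genes, which was 9.24% of 20807 protein-coding genes. The stretches between the start sites of 8 named pairs are printed here because they show the spread of motif content between the starts of such genes. These stretches are not the member peaks. For Rita1/Ddx54 and Noa1/Polr2b the strongest peak lay outside the stretch in both libraries. The letters are the plus strand of the GRCm38 reference assembly of RefSeq, on mm10 coordinates, with matches to the motifs given below in capitals. None of the stretches overlaps an annotated exon.
Rita1/Ddx54: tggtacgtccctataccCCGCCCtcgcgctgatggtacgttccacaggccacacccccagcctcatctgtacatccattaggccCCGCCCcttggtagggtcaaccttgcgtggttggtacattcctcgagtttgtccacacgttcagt
Aamp/Pnkd: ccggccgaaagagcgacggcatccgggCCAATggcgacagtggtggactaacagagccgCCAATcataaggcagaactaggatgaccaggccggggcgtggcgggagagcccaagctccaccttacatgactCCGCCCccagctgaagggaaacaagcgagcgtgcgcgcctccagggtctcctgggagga
Orc4/Mbd5: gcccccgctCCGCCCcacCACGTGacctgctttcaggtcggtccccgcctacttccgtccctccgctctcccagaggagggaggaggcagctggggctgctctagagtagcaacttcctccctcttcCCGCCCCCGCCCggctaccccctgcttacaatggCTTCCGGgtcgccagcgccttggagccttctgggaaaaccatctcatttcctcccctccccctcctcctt
Klc4/Mrpl2: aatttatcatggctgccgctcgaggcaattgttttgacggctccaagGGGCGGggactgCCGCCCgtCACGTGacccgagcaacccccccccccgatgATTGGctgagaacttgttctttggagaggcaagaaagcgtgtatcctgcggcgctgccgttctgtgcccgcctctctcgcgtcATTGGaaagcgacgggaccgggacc
Psmb1/Tbp: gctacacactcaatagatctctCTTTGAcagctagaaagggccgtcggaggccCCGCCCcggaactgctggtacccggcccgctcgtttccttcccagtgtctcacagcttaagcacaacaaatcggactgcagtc
Hist1h2bf/Hist1h2ad: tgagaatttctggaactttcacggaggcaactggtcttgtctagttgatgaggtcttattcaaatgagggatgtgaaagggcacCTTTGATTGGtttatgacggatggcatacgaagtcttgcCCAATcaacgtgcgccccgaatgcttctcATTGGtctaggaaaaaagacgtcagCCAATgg
Noa1/Polr2b: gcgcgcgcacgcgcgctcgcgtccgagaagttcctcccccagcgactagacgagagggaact
Sdhd/Timm8b: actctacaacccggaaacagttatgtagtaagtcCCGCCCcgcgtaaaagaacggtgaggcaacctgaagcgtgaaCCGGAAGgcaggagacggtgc

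The Rita1/Ddx54 stretch lies at chr5:120612590-120612738, Aamp/Pnkd at chr1:74284739-74284929 and Orc4/Mbd5 at chr2:48949277-48949507. Klc4/Mrpl2 lies at chr17:46646023-46646228 and Psmb1/Tbp at chr17:15499752-15499887. Hist1h2bf/Hist1h2ad lies at chr13:23574197-23574380, Noa1/Polr2b at chr5:77310085-77310146 and Sdhd/Timm8b at chr9:50603813-50603909. The letters differ widely among them. Noa1/Polr2b, with the RNA polymerase II subunit Polr2b, held none of the 13 motifs and had a CpG observed over expected ratio of 1.48, while Orc4/Mbd5, with the origin recognition subunit Orc4, held 5 motif matches at a ratio of 0.577. The histone stretch held 5 matches, 4 of them CCAAT boxes. In the Orc4/Mbd5 stretch footprints covered 129 of 231 bases in both libraries.

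Nearly all divergent pairs were open in this tissue. Here a pair is called open if it had a member peak in both libraries, which held for 914 of 980 pairs, or 93.3%. A further 1 pair had a member in 1 library, and 65 had none. A single gene is called open if each library had a shared peak centred no more than 1 kb from a start site of that gene. Of the genes in divergent pairs, 1816 of 1922 were open, or 94.5%, against 9510 of 18885 genes outside pairs, or 50.4%, and 54.4% of all protein-coding genes. One peak can open both genes of a pair, so the genes of a pair are not independent of each other. A peak at the start of the partner can also count a gene as open, which genes outside pairs lack by definition. The share in pairs is therefore raised by the way openness is defined, and how far was not tested.

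The difference between genes inside and outside pairs narrowed with CpG content and was present in each CpG class. CpG observed over expected is the number of CpG dinucleotides relative to that from the C and G content, here in 500 bp around the annotated gene start. In 317 of the 980 pairs the annotated gene ends overlap head to head, and the pair qualified through other start sites. For genes of these pairs the CpG class may not be that of the start site facing the partner, and its part in the difference was not tested. In the class under 0.4, 65.7% of 140 genes in pairs were open, against 16.0% of 7818 genes outside pairs. In the class from 0.4 to 0.6 the shares were 87.0% in pairs and 46.9% outside, and from 0.6 to 0.8 they were 96.0% in pairs and 74.9% outside. At 0.8 and above they were 98.6% in pairs and 86.7% outside. With 1 group of 2 libraries and no condition there is nothing to permute, since a sign flip over 2 libraries cannot go below a two-sided p of 0.5, so values are given for each library with no test.

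**Figure D1:**
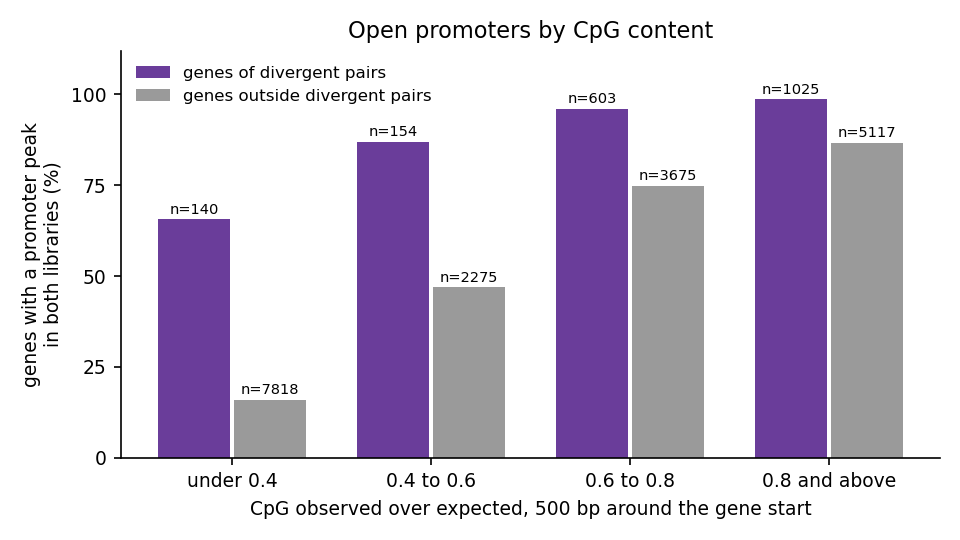
Bars give the percentage of protein-coding autosomal genes with a shared peak within 1 kb of a start site in both libraries, by CpG observed over expected at the gene start, for genes of divergent pairs (left bars) and genes outside them (right bars), with the number of genes above each bar. The share in pairs ran from 65.7% to 98.6% and the share outside from 16.0% to 86.7%.

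Among the pairs themselves, openness also followed CpG content. In the 500 bp around the midpoint of the start sites, 25 of 55 pairs with a ratio under 0.4 were open, 65 of 82 with 0.4 to 0.6, 272 of 281 with 0.6 to 0.8 and 552 of 562 at 0.8 and above. The median ratio was 0.843 in open pairs and 0.433 in the 66 pairs that were not open in both libraries. Openness also varied with the distance between the start sites, whose median over all pairs was 133 bp, with 79.2% of pairs at 300 bp or less. From 1 to 500 bp between 92% and 95.9% of pairs were open in each of 4 distance classes, against 84.3% from 501 to 750 bp and 83.8% from 751 to 1000 bp. The rule itself favours close pairs. A member's centre must lie within 1 kb of both start sites, so the span allowed for it shrinks as the gap widens. The pairs farther apart also had less CpG, with a median ratio of 0.575 from 751 to 1000 bp and 0.862 from 1 to 100 bp. The parts of the allowed span and of CpG in their openness were not tested. By chromosome, the open share ran from 86.8% of 38 pairs on chromosome 10 to 100% of 60 pairs on chromosome 8 and of 43 on chromosome 12.

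Some pairs lay close to the limit of 1 kb. Just inside it, Proser3/Hspb6 had start sites 996 bp apart and a mean signal of 10.6 ± 0.898 (SD, n = 2 libraries). Btf3l4/Txndc12, at 987 bp, had 2.88 and 5.49, and Asphd1/Sez6l2, at 981 bp, had 5.37 and 2.75. Just outside it lay Nacc1/Trmt1 at 1004 bp, Ddias/Prcp at 1005 bp and 5330417C22Rik/1700013F07Rik at 1005 bp. All 3 had shared peaks near both start sites, for example a signal of 6.17 in replicate 1 and 7.44 in replicate 2 for Ddias/Prcp. Of the 138 pairs with start sites over 1 kb and up to 2 kb apart, 67 had shared peaks near both start sites in both libraries, or 48.6%. A peak near each start site was asked for there, and 1 peak near both inside the limit, so this share is not set against those of closer pairs.

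Peak signal is the value the authors deposited per peak, on a scale that is not given. The signal of a pair is that of its strongest member peak in each library. Over the 914 open pairs it ran from 0.698 to 33.2 in replicate 1, with a median of 8.41, and from 0.554 to 34.7 in replicate 2, with a median of 8.18. The libraries ranked the pairs alike, with a Spearman correlation of 0.940 and a Pearson correlation of 0.953 on the log2 scale across the 914 pairs. Pairs are not replicates, and both libraries share the tissue and the genome, so the correlations are descriptions.

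**Figure D2:**
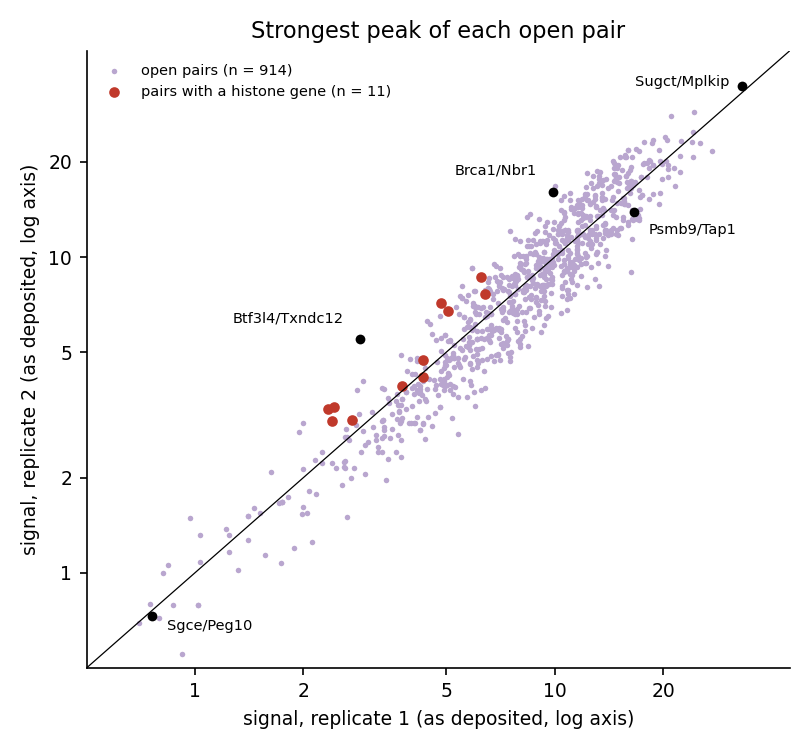
Each point is 1 of the 914 open divergent pairs, with the deposited signal of its strongest peak in replicate 1 on the x axis and in replicate 2 on the y axis, both on log axes, and the line of equal values. Black points are 5 named pairs, Sugct/Mplkip at the top (33.2 and 34.7) and Sgce/Peg10 near the bottom (0.761 and 0.731), and red points are the 11 open pairs with a histone gene.

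The pair with the highest signal was Sugct/Mplkip on chromosome 13, at 33.2 in replicate 1 and 34.7 in replicate 2. Sugct encodes a mitochondrial CoA transferase and Mplkip a protein that binds the mitotic kinase Plk1. The second, Rita1/Ddx54, had 24.4 and 28.8. Rita1 encodes a partner of the Notch pathway factor RBPJ, and Ddx54 an RNA helicase. Dnajb4/Fubp1, a heat shock co-chaperone and a DNA-binding regulator of Myc, had 27.4 and 21.7, and Aamp/Pnkd had 21.1 and 28. Sugct/Mplkip stood above the other pairs in both libraries.

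The other 6 of the 10 highest pairs lay close together, with mean signals over the libraries from 22.1 to 24.6. Among them were Ruvbl2/Gys1, Acin1/1700123O20Rik, Pdcd10/Serpini1, Usp37/Cnot9 and Zfp654/Cggbp1. Ruvbl2 is an ATPase of chromatin remodelling complexes and Gys1 the muscle glycogen synthase, Cnot9 is a subunit of the CCR4-NOT deadenylase, and Pdcd10 a regulator of vascular integrity. Ruvbl2/Gys1 had 24.3 and 24.9, and its SD over the libraries of 0.428 was small beside that of Aamp/Pnkd, 4.88. Their order is within the spread between libraries. Sugct/Mplkip, Ruvbl2/Gys1, Acin1/1700123O20Rik and Usp37/Cnot9 qualified through other transcripts, since their annotated gene ends overlap head to head.

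The 5 lowest open pairs had mean signals from 0.695 to 0.774. They were 4931428L18Rik/Pih1d3, Kctd19/Lrrc36, Sgce/Peg10, Zcchc3/6820408C15Rik and Spaca9/Ak8. Pih1d3 helps assemble the dynein arms of cilia, and Kctd19 acts in meiosis. Sgce and Peg10 are imprinted genes that are expressed from the paternal allele. Kctd19/Lrrc36 had 0.922 in replicate 1 and 0.554 in replicate 2, and Sgce/Peg10 had 0.761 and 0.731.

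Of the 66 pairs not open in both libraries, 43 had no peak in the longer deposited list of either library, 11 had one in 1 library and 12 in both. The pairs named next were picked after their values were seen. Abcg5/Abcg8, sterol transporters of liver and gut, had no peak of any list and no base with a false discovery rate of 0.001 or lower. The same held for Col4a4/Col4a3, basement membrane collagens of the kidney, for Kirrel2/Nphs1, whose products form the filtration slit of kidney podocytes, and for Plcz1/Capza3, genes of sperm. Peg3/Usp29, imprinted and paternally expressed like Sgce/Peg10, had a longer-list peak of 0.322 in replicate 1 and 0.300 in replicate 2, with 145 and 147 bases at a false discovery rate of 0.001 or lower. Sirt6/Ankrd24 was the pair with a member in replicate 2 only. In bulk tissue, fewer cells with an open site and less cutting per cell cannot be told apart.

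The tissue label was set beside defining markers before the pairs were grouped by function. Of 15 thymocyte markers 13 were open, among them Cd3e, Cd8a, Lck, Rag1 and Bcl11b, while Cd4 and Dntt were not. Of all protein-coding genes 54.4% were open. Of 8 markers of thymic epithelium 4 were open, Aire, Ccl25, Cldn4 and Epcam, which is near that share and is not read as a sign of epithelium. Ebf1 was open of 6 B cell markers, and none of 5 myeloid and 4 adipocyte markers was.

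Genes of basic cell upkeep had larger shares in divergent pairs than the 9.24% of all protein-coding genes. Their pairs were all open, which is near the 93.3% of all 980 pairs for lists of this size and is not read as particular to them. In open pairs lay 8.62% of all protein-coding genes. Of 91 DNA repair genes 32 were in pairs, or 35.2%, and all 34 of their pairs were open. The strongest were Desi1/Xrcc6, with the Ku70 subunit of end joining, at 22.3 and 18.6, and Atm/Npat, with the DNA damage kinase Atm and a coactivator of histone genes, at 18.4 and 20.1. Xrcc3/Zfyve21, with a gene of homologous recombination, had 12.8 and 18.0. Values of a pair are given for replicate 1 and then replicate 2 throughout.

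Of 61 DNA replication genes 16 were in pairs, or 26.2%, and all 17 pairs were open. Orc4/Mbd5 had 15.9 and 16.5, and Mcm4/Prkdc, which joins a subunit of the replicative helicase to the catalytic subunit of the DNA-dependent protein kinase, had 12.8 and 16.5. Mcm9/Asf1a, a second helicase of the family and a histone chaperone, had 12 and 11.8.

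Genes of the mitochondrion followed. Of 78 mitochondrial ribosomal protein genes 25 were in pairs, or 32.1%, with all 24 pairs open, led by Mrps18b/Ppp1r10 at 17.2 and 21.7 and Mrpl18/Tcp1 at 14.6 and 17.4. Tcp1 encodes a subunit of the cytosolic chaperonin. Of 91 oxidative phosphorylation genes 23 were in pairs, or 25.3%, with all 24 pairs open, and the 3 strongest, Ndufa8/Morn5, Vmac/Ndufa11 and Rps28/Ndufa7, all held a subunit of complex I. They had between 13.6 and 14.3 in replicate 1 and between 11.9 and 12.6 in replicate 2. Of 23 mitochondrial import genes 5 were in pairs, and all 5 pairs were open, with Arfip2/Timm10b at 10.9 and 12. Sdhd/Timm8b joins a subunit of complex II to an import chaperone and had 7.02 and 8.09.

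Cytosolic ribosomal protein pairs had the highest median signal of the functional lists with more than 10 pairs, 11.5 in replicate 1 and 10.5 in replicate 2, beside 8.41 and 8.18 over all open pairs. Of 81 such genes 13 were in pairs, or 16.0%, all open. Rpl9/Lias had 21.6 and 16.8, Med22/Rpl7a had 17.0 and 13.6 and Rpl15/Nkiras1 had 13.5 and 16.0. Splicing pairs came next, all 13 open, with medians of 10.7 and 9.81 and Qpctl/Snrpd2, with a core protein of spliceosomal snRNPs, at 13.3 and 18. In the remaining lists of upkeep genes all pairs were open too, beside 93.3% of all pairs, 20 of RNA polymerase and Mediator, 8 of aminoacyl-tRNA synthetases and 7 of the proteasome. Psmb1/Tbp, which joins a proteasome subunit to the TATA-binding protein, had 9.91 and 12.3, and S100pbp/Yars, with tyrosyl-tRNA synthetase, had 15.5 and 13.1. These lists and the pairs were chosen with results of these data known, and no test of their shares was made.

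Histone pairs had the lowest median signal of the functional lists. Of 67 replication-dependent histone genes 27 were in pairs, or 40.3%, mostly an H2A beside an H2B gene. Of these 14 pairs 11 were open, or 78.6%, beside 93.3% of all 980 pairs, and 14 pairs are too few to set them apart. Their median signal was 4.29 in replicate 1 and 4.16 in replicate 2, below the 8.41 and 8.18 of all open pairs. The strongest was Hist1h2bf/Hist1h2ad, with 6.24 and 8.67, then Hist2h2ac/Hist2h2be with 6.39 and 7.65 and Hist1h2an/Hist1h2bp with 4.83 and 7.14. Hist1h2ba/Hist1h2aa, the H2B and H2A variants of the testis, had no peak, nor had Hist1h2ap/Hist1h2br and Hist1h2bq/Hist1h2ao. Histone genes have near-identical copies, so reads there may be split or lost in mapping, and their values are uncertain.

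T cell genes were rarely in divergent pairs. Of 44 thymocyte and T cell genes, Cd8b1 was the 1 in a pair, or 2.27%. Its pair Smyd1/Cd8b1, a muscle methyltransferase and the CD8 beta chain, had start sites 555 bp apart and a signal of 8.63 and 8.77. In both libraries that peak covered the Cd8b1 start site and not the Smyd1 start site. Of 385 zinc finger genes 23 were in pairs, or 5.97%, below the 9.24% of all genes. All 20 of their pairs were open, which is near the 93.3% of all 980 pairs and is not read as particular to them. Zfp654/Cggbp1 led with 20.3 and 24.0. Of 11 antigen presentation genes, Psmb9 and Tap1 formed 1 pair, an immunoproteasome subunit and a peptide transporter with start sites 38 bp apart, at 16.6 and 13.9. The peak with that signal covered neither start site in either library.

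A list of 20 head-to-head pairs known from textbooks gave 14 pairs by the rule. Of these 13 were open, or 92.9%, near the 93.3% of all 980 pairs. Hspd1/Hspe1, the mitochondrial chaperonin and its co-chaperonin, had 15.3 and 14.8. Brca1/Nbr1, a tumour suppressor of homologous recombination and an autophagy receptor, had 9.89 and 16.1. Mrps12/Sars2, with mitochondrial seryl-tRNA synthetase, had 7.77 and 11.4. Lower were Tsc2/Nthl1, a brake on mTOR and a base excision repair enzyme, at 5.80 and 6.37, Fen1/Tmem258, with the flap endonuclease, at 5.02 and 4.17, and Mtx1/Thbs3 at 2.85 and 3.18. Hars/Hars2, the cytosolic and mitochondrial histidyl-tRNA synthetases, had 6.01 and 7.81. Trp53/Wrap53, at 1035 bp, and Cd3d/Cd3g, at 1355 bp, were too far apart. Col4a1/Col4a2, Surf1/Surf2 and Ppat/Paics were among those outside the rule because the annotated 5′ ends of their genes overlap, by 21 bp and 163 bp for the collagen and the Surf genes and by at least 210 bp for Ppat/Paics.

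Member peaks were stronger than promoter peaks at a single gene. The median signal was 6.35 for members and 3.31 for one-gene promoter peaks in replicate 1, and 5.78 and 2.85 in replicate 2, a ratio of 1.92 and 2.03. One-gene promoter peaks are shared autosomal peaks within 1 kb of start sites of exactly 1 protein-coding gene, 15032 and 15055 in number. Shared peaks away from promoters had medians of 1.69 and 1.38. The quartiles of members and one-gene peaks overlapped, from 3.26 to 9.99 for members and from 1.61 to 6.97 for one-gene peaks in replicate 1. In the strongest 10% of shared peaks lay 36.3% and 39.6% of members, against 19.6% and 19% of one-gene peaks.

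**Figure D3:**
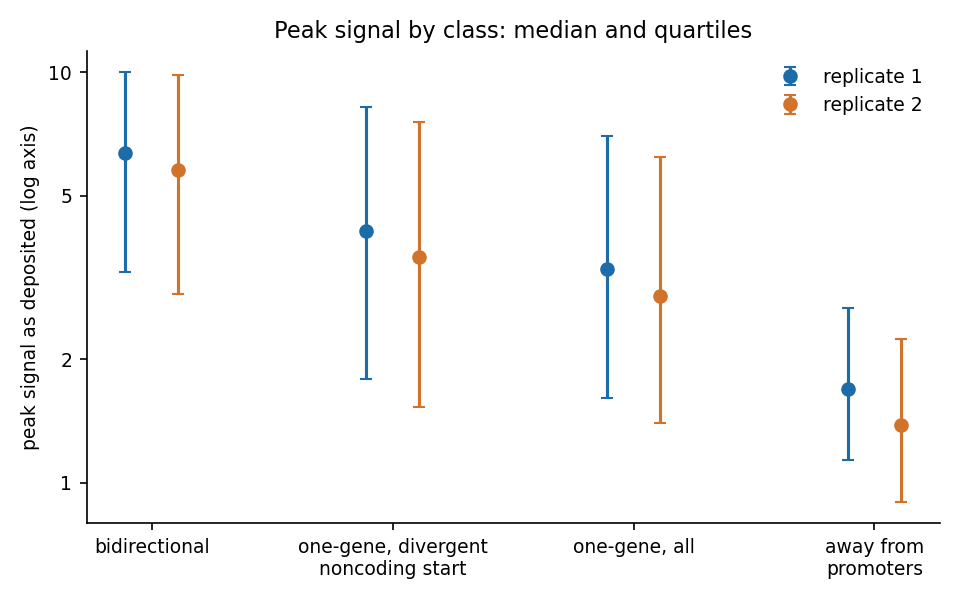
Points are median deposited peak signals on a log axis and bars run from the lower to the upper quartile, for each library (replicate 1 left, replicate 2 right) and 4 classes of shared autosomal peaks. Members had medians of 6.35 and 5.78, one-gene promoter peaks with a divergent noncoding start within 1 kb 4.11 and 3.54, all one-gene promoter peaks 3.31 and 2.85, and peaks away from promoters 1.69 and 1.38.

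The difference in signal held where CpG content was high and not where it was low. At a CpG ratio of 0.8 and above, members had medians of 7.53 and 6.93, against 4.69 and 3.90 for one-gene peaks, and from 0.6 to 0.8 they had 6.07 and 5.80, against 3.63 and 3.10. From 0.4 to 0.6 the medians were 2.20 and 1.80 for members and 1.91 and 1.77 for one-gene peaks. Under 0.4 the direction turned, with 1.27 and 1.41 for 57 and 54 members, against 1.66 and 1.60 for one-gene peaks. One-gene promoters with a divergent noncoding start, a comparison added after the data were seen, had 4.11 and 3.54, between both classes. Where only peaks centred within 250 bp of a start were kept, members had 7.19 and 6.89, against 4.91 and 4.27.

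Members were as wide as other promoter peaks and a little richer in CpG. The median width was 240 bp in replicate 1 and 260 bp in replicate 2 for members, against 240 bp in both for one-gene peaks. The median CpG ratio was 0.817 and 0.814 for members, against 0.771 and 0.770, while the GC content was 62.4% in both libraries for members, against 63.0%.

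One peak often spanned the starts of both genes. In replicate 1, 503 open pairs had 1 member peak, 322 had 2, 81 had 3 and 8 had 4. In replicate 2 the numbers were 505, 323, 72 and 14. Hnrnpa2b1/Cbx3, a splicing factor and a heterochromatin protein whose promoter is known to keep neighbouring DNA open, had 4 in both libraries, as had Tbc1d17/Akt1s1, Ints13/Fgfr1op2, Mllt11/Cdc42se1 and Ccni/2010109A12Rik. The centre of the strongest peak lay a median of 47.5 bp in replicate 1 and 52.5 bp in replicate 2 from the midpoint of the start sites. It covered both start sites in 53.5% and 50.5% of these peaks and neither in 17.1% and 17.2%. Other member peaks lay 408 and 430 bp from the midpoint and were weaker, with median signals of 2.98 and 2.60, against 8.42 and 8.19 for the strongest, a direction that the choice of the strongest fixes.

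The wider the gap, the less often did 1 peak span it. With start sites 1 to 100 bp apart, the strongest peak covered both in 81.8% of pairs in replicate 1 and 78.2% in replicate 2. From 101 to 200 bp it did so in 60.7% and 58.3%, from 201 to 300 bp in 27.8% and 26.2% and from 301 to 500 bp in 5.38% and 1.08%. No strongest peak covered both beyond 500 bp. Pairs with more than 1 member peak made up 37.5% and 37.2% at 1 to 100 bp, and 64.4% and 62.7% from 501 to 750 bp. Arfrp1/Zgpat, Bag4/Lsm1 and Dcun1d3/Lyrm1 had start sites 1 bp apart, with mean signals of 3.80, 10.1 and 12.9. Signal itself varied little with distance, with a Spearman correlation of 0.165 across the 914 open pairs and medians between 7.40 and 10.4 in replicate 1 over 6 distance classes.

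Around the start sites, cover by peaks was shifted upstream, to the side of the other gene. Peaks covered at most 83.5% of the 1828 start sites of open pairs in replicate 1, in the bin from -60 to -41 bp, and 82.8% in replicate 2, from -80 to -61 bp, with negative positions upstream. For 9510 open genes outside pairs the highest cover was 70.8% and 70.3%, from -40 to -21 bp. From -600 to -581 bp, 14.3% and 15.3% of starts in pairs were covered, against 5.15% and 5.49% outside. From 580 to 599 bp, inside the gene, the order was the opposite, 8.94% and 9.17% in pairs against 18.2% and 18.3% outside. Membership asks for a peak centre within 1 kb of both start sites, which favours the upstream side. The start sites of pairs are the closest annotated ones, and those outside pairs are annotated gene starts.

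**Figure D4:**
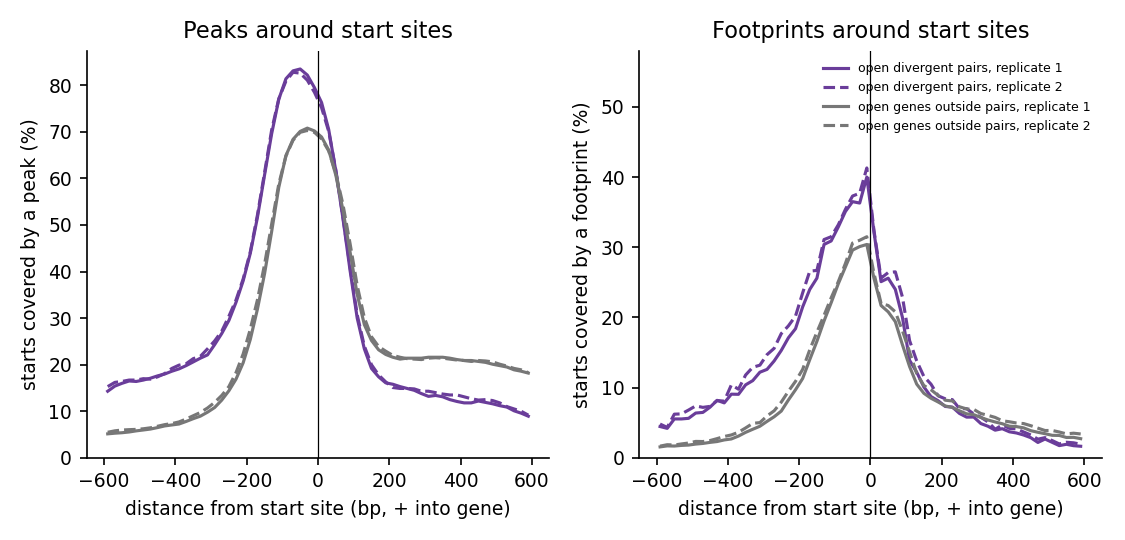
The percentage of start sites covered by a shared peak (left panel) or a footprint (right panel) in 20 bp bins, against distance from the start site in bp with positive values into the gene, for open divergent pairs and for open genes outside pairs in each library. Footprint cover was highest in the bin just upstream of the start, at 40.0% and 41.3% in pairs and 30.4% and 31.5% outside.

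Footprints were denser in members than in one-gene promoter peaks, but not among peaks of equal signal. There were 17.5 footprints per kb of member peaks in replicate 1 and 17.3 in replicate 2, against 14.9 and 15.3 per kb of one-gene peaks. Within quartiles of signal the order did not hold. In the highest quartile members had 21.8 and 20.9 per kb, against 21.6 and 21.0, and in the lowest they had 5.45 and 5.42, against 6.87 and 8.50. The order also turned where CpG was low, with 8.98 and 9.64 per kb in members under a ratio of 0.4, against 12.1 and 12.9. Of the footprints in members, 78.6% in replicate 1 and 77.7% in replicate 2 overlapped a footprint of the other library, against 73.6% and 69.6% in one-gene peaks. All footprints carry the same deposited score, so they could not be ranked.

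Motifs were searched as exact letters on both strands. They were NRF1 (GCATGCGC), ETS factors (CCGGAAG), SP and KLF factors (GGGCGG), NF-Y (CCAAT), YY1 (AAGATGGC), the cyclic AMP response element (TGACGTCA), the E-box (CACGTG), ZNF143 (ACTACAA), the TATA box (TATAAA), E2F (TTTCCCGC), RFX (GTTGCCAT), RUNX (TGTGGT) and TCF7 with LEF1 (CTTTGA). Matches of different motifs may overlap, as in the histone stretch printed above. In 300 bp windows at the gene starts of all 20807 genes, 3.31% held the NRF1 letters, 11.7% ETS, 46.3% SP and KLF, 36.2% NF-Y, 3.55% YY1, 2.32% the cyclic AMP element and 7.52% the E-box. ZNF143 letters were in 3.31%, TATA in 10.7%, E2F in 1.40%, RFX in 1.08%, RUNX in 14.8% and TCF7 with LEF1 in 13%.

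Letters of ETS factors, YY1, ZNF143, NRF1 and NF-Y were more frequent in members than in one-gene promoter peaks. Members also had the higher signal and were more often centred near a start site. In replicate 1, 1149 of 1374 members were centred within 250 bp of a start, against 9677 of 15032 one-gene peaks. In replicate 2 the numbers were 1144 of 1376 and 9649 of 15055. Motif shares were not compared at equal signal or at equal distance from a start. ETS letters, bound by GABPA among others, lay in 24.2% and 24.3% of members, against 14.8% and 15% of one-gene peaks. YY1 letters lay in 7.06% and 6.83% of members, against 3.76% and 3.72%, ZNF143 letters in 5.09% and 5.31%, against 2.91% and 3.0%, and NRF1 letters in 6.33% and 6.90%, against 4.18% and 4.24%. CCAAT boxes lay in 35.8% and 35.5% of members, against 28.5% and 29.3%. The GC box of SP and KLF factors differed little, with 65.4% and 65.6% of members, against 63.5% and 63.0%. RUNX letters, of factors that act in T cell development, lay in 8.81% and 8.50% of members, against 10.1% and 10.3% of one-gene peaks and 21.6% and 22.3% of peaks away from promoters. TATA boxes were in 2.55% and 2.83% of members, against 2.47% and 2.57%.

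The ETS, YY1, ZNF143, NRF1 and NF-Y differences stood in both classes of high CpG. For ETS the share in members over that in one-gene peaks was 1.61 from 0.6 to 0.8 and 1.55 at 0.8 and above, as means over the libraries. For YY1 the ratio was 1.88 and 1.67 in the same classes, and for ZNF143 2.38 and 1.24. NRF1 had 1.22 and 1.49, and NF-Y 1.17 and 1.29. Below a CpG ratio of 0.6 the ETS order turned, at 0.735 from 0.4 to 0.6 and 0.596 under 0.4, where members were few. At 0.8 and above, SP and KLF letters were less frequent in members, at 0.933, and RUNX letters more frequent, at 1.12.

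**Figure D5:**
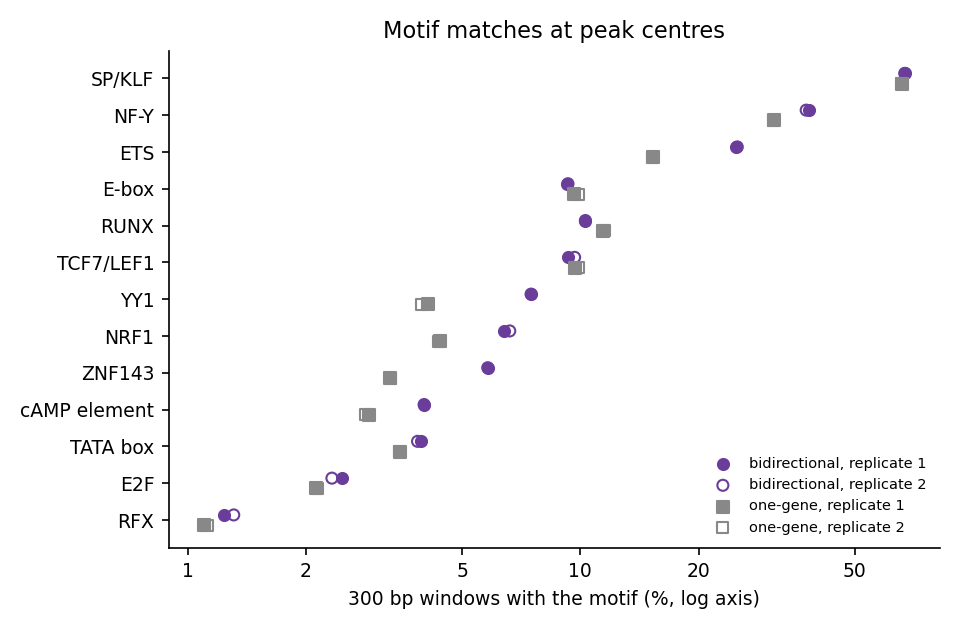
The percentage of 300 bp windows at peak centres that held each motif, on a log axis, for members (circles) and one-gene promoter peaks (squares), with replicate 1 filled and replicate 2 open. ETS letters were in 24.9% and 25.1% of member windows, against 15.3% in both libraries for one-gene windows, and the points of members for the E-box, RUNX and TCF7 with LEF1 lay to the left of those of one-gene peaks.

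Motif matches differed in how often a footprint lay on them. In members, footprints covered 28.9% of all bases in replicate 1 and 29.1% in replicate 2. They lay on 55 of 58 cyclic AMP elements in replicate 1 and 53 of 58 in replicate 2, and on 130 of 142 NRF1 matches and 139 of 155. SP and KLF letters were footprinted in 63.7% and 65.9% of matches and ETS letters in 54.3% and 54.2%. NF-Y letters, at 30.6% and 28.7%, and ZNF143 letters, at 26% and 29.5%, were near the share of all bases, and RUNX letters, at 10.9% and 11.9%, below it. In one-gene peaks, where footprints covered 22.9% and 23.7% of bases, they lay on 89.1% and 88.6% of NRF1 matches, 44.5% and 48.8% of ETS matches and 18.9% and 17.0% of RUNX matches. Footprint calls depend on the local cut preference of DNase I, which was not corrected here.

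Members with certain motifs were also the stronger ones. Members with a cyclic AMP element had median signals of 10.2 and 9.74, against 6.16 and 5.63 without. With NRF1 letters the medians were 9.15 and 9.33, against 6.02 and 5.49, and with a CCAAT box 8.45 and 8.68, against 5.14 and 4.61. With SP and KLF letters they were 7.09 and 6.65, against 4.49 and 4.24. With RUNX letters they were lower, 5.06 and 4.31, against 6.42 and 5.89. The letters of the cyclic AMP element, NRF1 and SP and KLF hold a CpG, and members with more CpG had the higher signal. The part of CpG content in these differences was not tested.

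Between the libraries, members varied less than peaks away from promoters. The log2 ratio of replicate 1 over replicate 2, after subtraction of the median of 0.16 over all shared peaks, had a median of -0.09 over members and an SD of 0.314, against an SD of 0.326 for one-gene peaks and 0.504 for peaks away from promoters. Peaks away from promoters also had the lower signal, with medians of 1.69 and 1.38, and its part in the spread was not tested. Past a 2-fold difference lay 0.218% of members, against 0.379% of one-gene peaks. Of the open pairs 1 was past it, Btf3l4/Txndc12, at 2.88 and 5.49, where the strongest peaks of the libraries did not overlap. Next came Snrpa/BC024978, with the U1 snRNP protein A, at 13.4 ± 4.83 (mean and SD, n = 2 libraries), Brca1/Nbr1, Cks1b/Shc1, a cyclin-dependent kinase subunit beside a signalling adaptor, at 7.52 and 12.1, and Etfdh/4930579G24Rik at 8.55 and 13.7. All 5 were higher in replicate 2.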

How the data were processed

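DNase-seq libraries of thymus were analysed from the authors' deposited files, which were made per library on mm10 per the file headers and labels. Read depth is unknown, with the aligner, peak caller and thresholds not given in the sources used here, so no counting error is given. The deposited signal of each peak has no stated scale. The deposited q-value (false discovery rate) is per run of bases. The authors' deposited score of every footprint is the constant 0.01, so positions alone were used. Reads of hybrid mice placed on mm10 may be lost at CAST alleles.

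Start sites were those of basic transcripts of protein-coding genes in GENCODE vM21, and sequence came from GRCm38, which no file coordinate exceeded. An overlap of 1 bp or more made a peak shared. A pair's distance is that between its closest qualifying start sites, so 317 pairs whose longest transcripts overlap head to head qualified through other transcripts, and 38 genes were in more than 1 pair. Tools were Python 3.11.15, numpy 2.4.6, pandas 2.3.3 and matplotlib 3.10.9, and the counting steps were tested on simulated data. Named pairs were the 10 highest and 5 lowest in mean signal, the 5 that differed most between libraries, the 3 nearest 1 kb on each side, the 3 closest together, the 5 with the most peaks, up to 3 per gene list, and the textbook pairs. Some pairs that this rule names are not reported here. Members and lists were chosen with earlier results of these data known.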

Additional observations from a re-analysis of the deposited data

How the results depend on the processing

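The number of members stayed within 1.5 times of its mean of 1375 under each alternative tried, from 1007 to 1593 in a single library. With either replicate left out, the share of open pairs was 93.3% to 93.4%, the signal ratio of members over one-gene peaks 1.92 to 2.03, the width ratio 1.00 to 1.08, the footprint ratio 1.12 to 1.18, the CpG ratio 1.06, the number of motifs more frequent in members 11 of 13 and the median offset 47.5 to 52.5 bp. The centred ratio between libraries needs both.

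The share of open pairs was 94.3% with gene 5′ ends only, 94.4% with start sites at most 500 bp apart, 91.5% with head-to-head overlaps added, 85.5% with centres within 500 bp, 89.4% with 50% overlap, 90.5% with the stronger 50% of peaks and 94.5% with the longer list. In the same order the signal ratio, 1.97 as reported, was 1.87, 1.98, 1.86, 1.89, 1.77, 1.42 and 2.50, and the CpG ratio, 1.06 as reported, was 1.06, 1.07, 1.06, 1.06, 1.06, 1.04 and 1.08. The signal ratio was 2.71 with 1 peak per pair. From the lowest CpG class to the highest it was 0.822, 1.09, 1.77 and 1.69. In comparisons chosen after seeing the data it was 1.54 with centres within 250 bp, 1.64 between the strongest peaks per pair and per gene, and 1.59 against one-gene peaks with a divergent noncoding start.

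The footprint ratio, 1.15 as reported, was 1.05 with the stronger 50% of peaks, 1.23 with the longer list, 1.38 with 1 peak per pair and 1.24 by bases covered. It turned to 0.745 and 0.830 in the 2 lowest CpG classes, and to 0.716, 0.919 and 0.974 in signal quartiles 1 to 3, with 1.00 in quartile 4, an alternative also chosen after seeing the data. The width ratio was 0.973 in the CpG class from 0.6 to 0.8. Causes were not tested.

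Of 13 motifs 4 were more frequent in members in the lowest CpG class, 5 in the next, 7 from 0.6 to 0.8 and 10 in the highest, against 11 over all. In the lowest class, of 57 and 54 members, NRF1, YY1, the cyclic AMP element, E2F and RFX were at 0, ETS at 0.596 and SP and KLF at 0.808 of the one-gene share. From 0.4 to 0.6, ETS was at 0.735, SP and KLF at 0.918, the E-box at 0.796 and TATA at 0.537. From 0.6 to 0.8 the cyclic AMP element was at 0.839, TATA at 0.721 and E2F at 0.917. At 0.8 and above SP and KLF were at 0.933 and the E-box at 0.957, while RUNX, at 1.12, and TCF7 with LEF1, at 1.29, turned higher. The E-box was at 0.948 in 300 bp windows. No paired analysis was possible because there is 1 group. Unknown depth and 1 group of 2 libraries limit these values.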

Other observations

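All 11 open pairs with a histone gene were higher in replicate 2 after centring, a pattern noticed in the data. Their median log2 ratio of replicate 1 over replicate 2 was -0.50 with an SD of 0.202 across pairs, against a median of -0.11 and an SD of 0.297 over all 914 open pairs, of which 64.0% were higher in replicate 2. Pairs are not replicates and only 2 libraries were compared, so no test was made.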
